A study of Mus musculus with 16 samples.

Results

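The 9 genes described here encode amino acid carriers of the SLC38, SLC36 and SLC43 families in mouse embryonic stem (ES) cells. They were taken by symbol from a table of 27179 genes and are Slc38a1, Slc38a2, Slc38a3, Slc38a4, Slc38a10, Slc36a1, Slc36a4, Slc43a1 and Slc43a2. RNA was sequenced in 16 libraries, 2 for each of 8 groups, which cross 2 maintenance media with 4 collection times. All cells had first been grown in serum with leukaemia inhibitory factor (LIF) on gelatin. They were then adapted over 3 passages to either medium and used for at most 9 passages. The 2i/LIF medium was free of serum and carried N-2 and B-27 supplements. The serum/LIF+2i medium carried 10% fetal bovine serum. Both held LIF, glutamine at 2 mM and 2i, a pair of inhibitors. CHIR99021, given at 3 uM, inhibits GSK3 and thereby activates Wnt signalling. PD0325901, given at 1 uM, inhibits MEK and thereby blocks ERK signalling. Cells at 0 h were collected in their maintenance medium. The others were collected 12, 24 or 40 h after a change to serum-free N-2 and B-27 medium that held neither 2i nor LIF, which starts the exit from naive pluripotency. The release medium of the serum/LIF+2i cells had a different base (a DMEM without glutamine, to which 2 mM was added). After 0 h, maintenance history and release base therefore cannot be told apart. The protocol gives 24 and 40 h for serum/LIF+2i cells, whereas the titles also give 12 h, and the titles were followed. The cell line is not given in the sources used here. No label says whether replicates were separate cultures, so p-values measure only the spread between these libraries, which may be technical.

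The SLC38 family holds sodium-coupled carriers of small neutral amino acids. Slc38a1, Slc38a2 and Slc38a4 provide the activity called system A, which takes up alanine, serine and glutamine against a gradient. Slc38a2 is a textbook target of the transcription factor ATF4, which acts when amino acids are short. Slc38a3 provides system N, which moves glutamine, asparagine and histidine, and Slc38a10 is a longer, less well characterised relative. In the SLC36 family, Slc36a1 is a proton-coupled exporter of small amino acids found on lysosomes, and Slc36a4 carries proline and tryptophan. Slc43a1 and Slc43a2 let leucine and other large neutral amino acids cross the membrane down their gradient, without the partner chain that the SLC7 exchangers need.

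The labelled cell type was checked against marker genes. None of 5 shared stem cell markers (Pou5f1, Sox2, Sall4, Utf1 and Lin28a) was at 0 in any group, and their summed level was 1400 to 2850 CPM (counts scaled to library size, so that libraries of different depth can be compared). The sum hides opposite courses. At 40 h Sox2 stood at 0.40 times its 0 h level in 2i/LIF and 0.36 times in serum/LIF+2i, and Sall4 at 0.71 and 0.74 times. Utf1 stood at 20.1 and 7.97 times, Lin28a at 10.7 and 7.53 times and Pou5f1 at 0.99 and 0.96 times. Summed over 7 naive markers, the level ran from 4850 to 5220 CPM at 0 h and from 159 to 172 CPM at 40 h. At 40 h the 6 primitive endoderm markers summed to 10.5 to 16.2 CPM, the 6 trophoblast markers to 4.76 to 6.48 CPM and the 6 fibroblast markers to 7.47 to 10.1 CPM. Neural markers were higher, and their 5 genes summed to 98.2 to 132 CPM. The 5 mesoderm markers summed to 1.22 to 1.84 CPM at 40 h and the 5 formative markers to 1870 to 2710 CPM. At 0 h the sums were 6.23 to 6.9 CPM for primitive endoderm, 16.9 to 22.2 for trophoblast and 7.64 to 17.4 for fibroblast markers. They were 19.5 to 36 CPM for mesoderm, 32.3 to 51.5 for neural and 126 to 170 for formative markers. Total counts were 5931381 to 11142744 per library. Ribosomal RNA genes took 0.429% to 1.72% of counts, most in serum/LIF+2i replicate 1 at 24 h.

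Slc38a1, Slc38a2 and Slc38a4 lie side by side on chromosome 15 (GRCm38.p6, the assembly that mm10 also names). In the RefSeq annotation Slc38a1 spans 96571418 to 96643438, Slc38a2 spans 96687392 to 96699728 and Slc38a4 spans 96994816 to 97055956. The gaps of 43953 and 295087 bases between them hold 0 protein-coding genes. Slc36a1 lies at 55204322 to 55236330 on chromosome 11. The sequences below are RefSeq bases just upstream of 3 members, shown because Slc38a2 gave the largest signal of the set, Slc38a4 is its rising neighbour and Slc36a1 fell. Capitals mark matches on either strand to 4 motifs, CACGTG (the E-box core bound by TFEB and other factors), TGATGNAA (the core bound by ATF4 with a C/EBP partner), CCAAT and TATAA. No motif overlapped another.
Slc38a2, chr15:96699729-96699978, reverse strand: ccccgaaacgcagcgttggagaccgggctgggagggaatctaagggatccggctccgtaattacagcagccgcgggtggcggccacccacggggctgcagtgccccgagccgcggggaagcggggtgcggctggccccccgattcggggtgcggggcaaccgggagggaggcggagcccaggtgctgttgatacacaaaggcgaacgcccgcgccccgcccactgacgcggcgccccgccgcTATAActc
Slc38a4, chr15:97055957-97056206, reverse strand: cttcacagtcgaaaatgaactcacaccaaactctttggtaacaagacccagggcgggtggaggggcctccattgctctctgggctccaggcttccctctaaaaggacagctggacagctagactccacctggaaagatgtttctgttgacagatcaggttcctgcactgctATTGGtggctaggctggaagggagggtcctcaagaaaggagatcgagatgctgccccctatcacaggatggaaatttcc
Slc36a1, chr11:55204090-55204321, forward strand: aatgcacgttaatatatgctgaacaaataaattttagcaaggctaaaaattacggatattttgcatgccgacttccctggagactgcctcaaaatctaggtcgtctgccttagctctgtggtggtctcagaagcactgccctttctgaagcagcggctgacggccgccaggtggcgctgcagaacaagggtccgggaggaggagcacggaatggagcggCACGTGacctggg

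The window of Slc38a2 was 72.0% G and C, against 52.8% for Slc38a4 and 52.6% for Slc36a1. It held TATAA beginning 8 bases before the annotated start, as did 22.8% of 32851 windows of that length for that motif at any place. Slc38a4 held CCAAT on the opposite strand at 79 bases, a motif in 33.8% of windows. Slc38a4 has 3 promoter entries, of which only the outermost was searched. Slc36a1 held CACGTG beginning 13 bases before its start, a motif in 5.41% of windows cut to the same 232 bases. TGATGNAA was in none of the 3, and in 3.45% of all 250-base windows. Bases inside the genes and further upstream were not searched, so its absence here does not speak to the rest of each gene. A match is a description of these letters only.

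All 9 carriers differed from 0 h at 40 h in both media, 7 higher and 2 lower, by edgeR's quasi-likelihood test with Benjamini-Hochberg adjustment over all 14288 tested genes (called at an adjusted p under 0.05). Of all tested genes, 68.8% were called in this comparison for 2i/LIF and 70.5% for serum/LIF+2i, with 34.1% and 35.3% called higher and 34.7% and 35.3% called lower. Slc38a3 and Slc36a4 passed the filter on low counts only through groups where they were high, so the count of 9 carries no weight for them. Of the other 7, 5 were called higher and 2 lower in each medium. The members' median log2 fold change was 1.02 for 2i/LIF and 1.63 for serum/LIF+2i, beside 0.005 and -0.003 over all genes tested. Without Slc38a3 and Slc36a4, left out after the values were seen, it was 0.62 and 1.00. The members were chosen with earlier results of these data known, so these medians only describe them. The calls at 40 h held in all 7 other analyses and without any single library, except that a minimum mean of 5 CPM removed Slc38a3 and Slc36a4 from the test. In bulk RNA a smaller share of cells expressing a gene and less RNA per cell cannot be told apart.

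**Figure D1:**
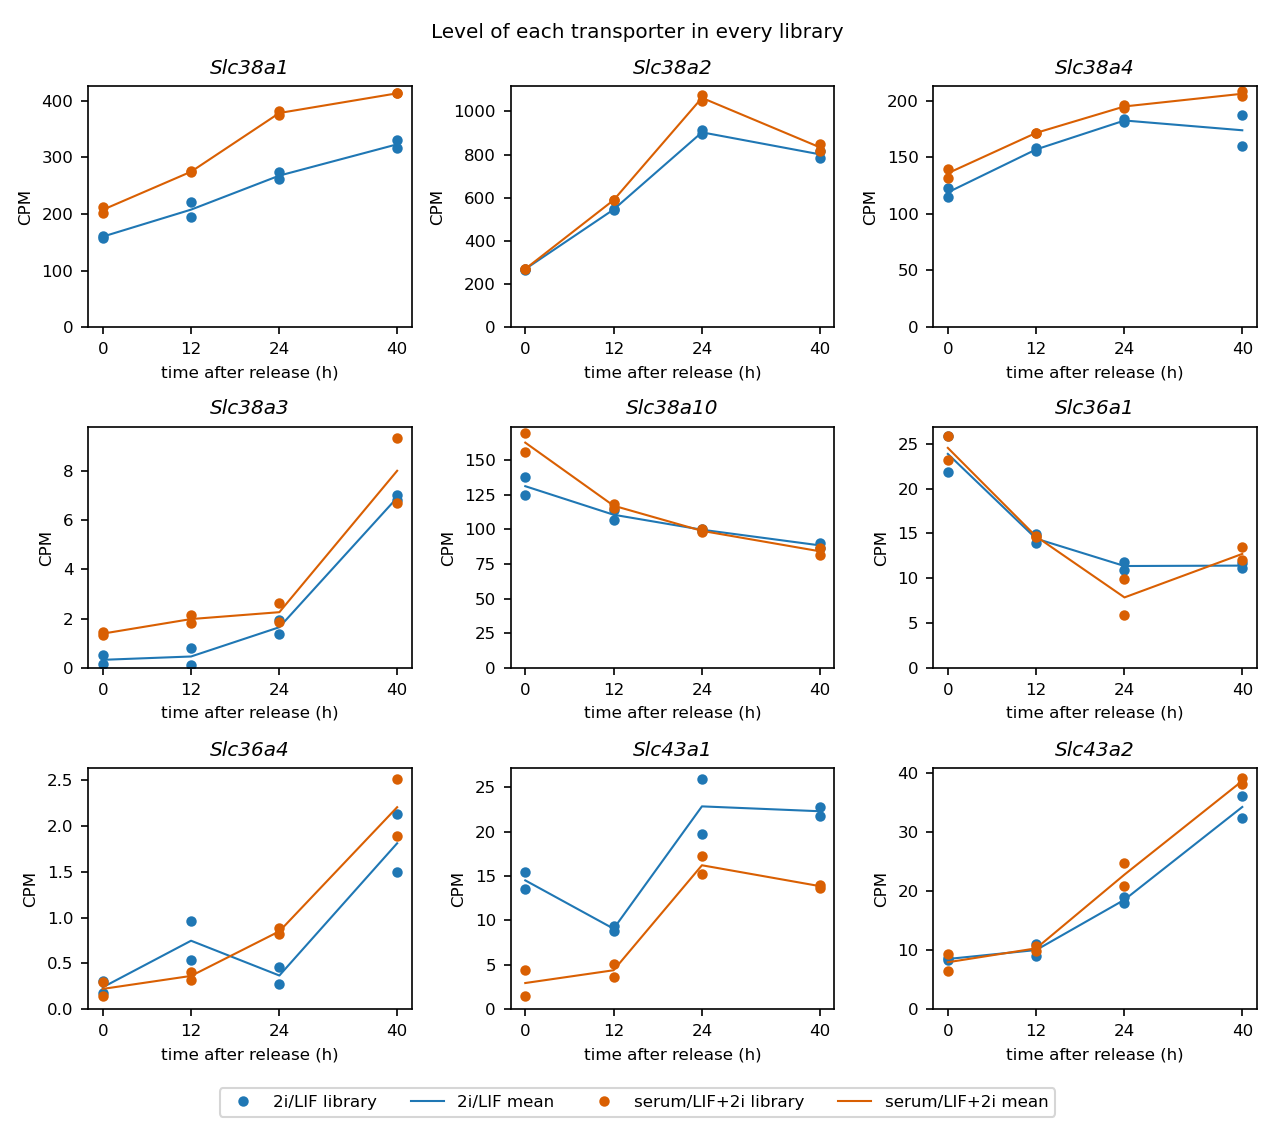
Level of each carrier (CPM, linear axis from 0) against time after release in hours; points are single libraries (2 per group), lines join group means, blue is 2i/LIF and orange is serum/LIF+2i. Slc38a2 is highest at 24 h in both media, Slc38a10 and Slc36a1 lie lower at every later time than at 0 h, and Slc43a1 lies lower in serum/LIF+2i at every time.

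Slc38a2 was the most abundant of the system A genes and the member with the largest level overall. Its CPM in the 2 libraries of 2i/LIF was 267 and 272 at 0 h, 543 and 548 at 12 h, 912 and 895 at 24 h, and 818 and 785 at 40 h. Cells from serum/LIF+2i showed 269.6 and 269.8, then 588 and 589.9, then 1078 and 1049, then 851 and 817. All later libraries lay above all 0 h libraries, and the 24 h libraries above all others. By 12 h the log2 fold change against 0 h stood at 1.02 ± 0.04 (± SE throughout; edgeR adjusted p 6.5e-49) for 2i/LIF and 1.13 ± 0.04 (4.1e-54) for serum/LIF+2i. It was largest at 24 h, with 1.75 ± 0.04 and 1.98 ± 0.04. Between 24 and 40 h the level then fell, in 2i/LIF by 0.17 ± 0.03 (log2, adjusted p 1.3e-05) and by 0.35 ± 0.03 in serum/LIF+2i (9.9e-17). The order of the groups was the same as the order of times except that 40 h stood below 24 h. Groups that did not differ beyond their spread were the 0 h groups of the media and the 40 h groups of the media, whose libraries overlapped.

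Slc38a1 rose throughout instead. In 2i/LIF it went from 162 and 158 CPM at 0 h over 195 and 220.5 at 12 h and 262 and 274 at 24 h to 330.4 and 316 at 40 h. Corresponding serum/LIF+2i values were 213 and 202, 276 and 273, 375 and 382, and 413 and 413. In neither medium did neighbouring times overlap. Its log2 fold change at 40 h was 1.02 ± 0.05 (adjusted p 3.3e-42) and 1.00 ± 0.04 (6.4e-45). The step from 24 to 40 h was still upward, by 0.27 ± 0.04 for 2i/LIF (2.4e-08) and by 0.13 ± 0.04 for serum/LIF+2i (0.0035); the latter was not called without the serum/LIF+2i replicate 1 at 24 h (0.11, adjusted p 0.0512). Across the 8 groups, 2i/LIF at 12 h overlapped serum/LIF+2i at 0 h, and 2i/LIF at 24 h overlapped serum/LIF+2i at 12 h.

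Slc38a4, which is imprinted in the mouse and transcribed mainly from the paternal copy, changed least of the 3 neighbours at 24 and 40 h. It stood at 123 and 115 CPM at 0 h in 2i/LIF, at 156 and 158 at 12 h, at 184 and 181 at 24 h, and finally at 160.4 and 187 at 40 h. The values in serum/LIF+2i were 132 and 139.8, 172 and 172, 196 and 194, and 204 and 208. Every library after release was above every 0 h library of both media. The log2 fold change at 40 h was 0.55 ± 0.05 (adjusted p 1.6e-16) for 2i/LIF and 0.60 ± 0.05 (3.3e-21) for serum/LIF+2i. Most of this was present at 24 h, with 0.62 ± 0.05 and 0.52 ± 0.05, and the step from 24 to 40 h was not called in either medium (-0.07 ± 0.05 and 0.08 ± 0.05). In 2i/LIF at 40 h replicates differed by more than at any other time, so that this group overlapped 2i/LIF at 24 h and serum/LIF+2i at 12 h. Without 2i/LIF replicate 2 at 40 h the 24 to 40 h step there was -0.19 (adjusted p 0.00574), and with genes filtered at a mean of 5 CPM the step in serum/LIF+2i was 0.11 (0.0411; 0.13 with scaling by library size only).

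Slc38a3, the system N carrier, was near the limit of detection before release. In 2i/LIF it had 3 and 1 counts at 0 h, 1 and 6 at 12 h, 14 and 9 at 24 h and 56 and 50 at 40 h. For serum/LIF+2i the values were 9 and 10, 16 and 17, 17 and 26, and 108 and 69. At 40 h this came to 6.90 ± 0.155 CPM (SD, n = 2) for 2i/LIF and 7.99 ± 1.86 CPM for serum/LIF+2i, and all 4 libraries lay above all earlier ones. From summed counts, the level at 40 h was 21.4 times that at 0 h in 2i/LIF, with a 95% interval from 8.11 to 80.0 (exact binomial, counting error only), and 5.78 times in serum/LIF+2i (3.59 to 9.83). Slc38a3 passed the filter on low counts only through groups where it was high, so its calls against lower groups only describe the counts. The step from 24 to 40 h was called in both media, at 2.04 ± 0.32 (log2, adjusted p 3.9e-08) and 1.81 ± 0.25 (6.6e-10), and the change at 12 h in neither. At 24 h it was called in 2i/LIF only (2.31 ± 0.69, 0.0023), not without replicate 2 at 0 h (1.66, 0.0762), and the interaction at 24 h was not called (adjusted p 0.18). Neural marker genes also increased in sum. Over 5 genes (Sox1, Pax6, Neurog2, Tubb3 and Map2) the sum went from 51.5 CPM in both libraries at 0 h to 98.2 and 108 at 40 h in 2i/LIF and from 32.3 and 37.5 to 132 in both in serum/LIF+2i. The sum hides different courses. From 24 to 40 h Sox1, Tubb3 and Map2 rose in both media. Pax6 changed by -0.55 ± 0.21 over that step in 2i/LIF (log2, edgeR adjusted p 0.020) and was not called in serum/LIF+2i (-0.07 ± 0.20). At 12 h Map2 was lower than at 0 h in both media (-1.12 ± 0.33 and -2.01 ± 0.34). Neurog2 was at 0 in 2i/LIF at 0, 24 and 40 h and in serum/LIF+2i at 0 and 12 h. Whether neural cells were present, and their part in the level of Slc38a3, was not tested.

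Slc38a10 fell after release. Its CPM in 2i/LIF was 125 and 138 at 0 h, 107 and 114 at 12 h, 101 and 99.1 at 24 h and 86.5 and 90.5 at 40 h. The serum/LIF+2i libraries gave 156 and 169, 116 and 119, 97.9 and 100.1, and 81.7 and 86.8. Within each medium no neighbouring times overlapped. The log2 fold change at 40 h was -0.57 ± 0.06 (adjusted p 1.9e-15) and -0.95 ± 0.05 (3.5e-33). At 24 and at 40 h the media overlapped, and the 0 h group of serum/LIF+2i was the highest of all 8. The fall at 12 h in 2i/LIF, -0.25 ± 0.06 (1.7e-04), was not called without replicate 2 at 0 h (-0.17, adjusted p 0.0606).

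Slc36a1, the lysosomal exporter, was the other member that fell. In 2i/LIF its CPM was 25.9 and 21.9 at 0 h, 14.9 and 13.9 at 12 h, 11.8 and 10.9 at 24 h and 11.1 and 11.7 at 40 h. Cells from serum/LIF+2i showed 25.9 and 23.2, 14.7 and 14.6, 5.86 and 9.88, and 13.4 and 12.0. No later library reached a 0 h library, and at 12 h the log2 fold changes were already -0.72 ± 0.14 (adjusted p 1.0e-05) and -0.74 ± 0.14 (1.2e-06). At 40 h they were -1.06 ± 0.15 (4.6e-10) and -0.94 ± 0.13 (3.1e-10). Between 24 and 40 h the level in serum/LIF+2i rose again by 0.68 ± 0.16 (1.2e-04), whereas in 2i/LIF the step was 0.00 ± 0.17 and not called. That rise stayed called with ribosomal RNA genes left out, and its cause was not tested. It depended on serum/LIF+2i replicate 1 at 24 h, the library with the largest share of ribosomal RNA counts. Without it the step was 0.37 (adjusted p 0.0944), and without replicate 2 it was 1.12. Its 12 to 24 h step of -0.88 ± 0.16 likewise became -0.57 without that library and stayed called (0.00732). In the order of groups, 2i/LIF at 24 h overlapped 2i/LIF at 40 h, and the media overlapped at 12 h and at 0 h.

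Slc36a4 was among the least abundant members, with 1 to 7 counts per library at 0 and 12 h. In 2i/LIF it had 1 and 2 counts at 0 h, 7 and 4 at 12 h, 2 and 3 at 24 h and 17 and 11 at 40 h. Corresponding serum/LIF+2i values were 2 and 1, 3 and 3, 8 and 8, and 22 and 26. From summed counts the level at 40 h was 7.53 times that at 0 h for 2i/LIF (95% interval 2.33 to 38.7) and 9.93 times for serum/LIF+2i (3.20 to 49.8). All 4 libraries at 40 h lay above all others. Slc36a4 passed the filter on low counts only through groups where it was high, so its calls against lower groups only describe the counts. At 24 h it was called in serum/LIF+2i only (log2 1.87 ± 0.82, adjusted p 0.039, against 3 counts in all at 0 h). The call was lost without any of the libraries of that comparison, with log2 values of 2.41, 1.49, 1.82 and 1.93. DESeq2 (adjusted p 0.106) and edgeR with no filter (0.0586) did not call it either. The interaction at 24 h was not called (0.58). The 24 to 40 h step in serum/LIF+2i, 1.35 ± 0.43 (0.0060), was not called without replicate 2 at 24 h (0.058) or replicate 2 at 40 h (0.0814), nor by DESeq2 (0.101).

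Slc43a2 rose with time in both media. It was at 8.62 and 8.35 CPM at 0 h in 2i/LIF, 8.91 and 11.1 at 12 h, 18.0 and 19.0 at 24 h and 32.3 and 36.1 at 40 h. For serum/LIF+2i the values were 9.40 and 6.46, 10.7 and 9.90, 24.8 and 20.8, and 38.1 and 39.2. The 0 h groups of the media overlapped each other, as did the 12 h groups, and a library of serum/LIF+2i at 0 h also lay within the range of 2i/LIF at 12 h. From 24 h on no groups overlapped. At 12 h the change was not called in either medium (0.24 ± 0.19 and 0.37 ± 0.18), although in serum/LIF+2i it was without replicate 1 at 0 h (0.66, adjusted p 0.0170). Each of the later steps was called. The log2 fold change at 40 h was 2.01 ± 0.15 (adjusted p 5.1e-25) for 2i/LIF and 2.28 ± 0.14 (6.9e-32) for serum/LIF+2i.

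Slc43a1 followed different courses in the media. In 2i/LIF it stood at 15.5 and 13.5 CPM at 0 h, 8.77 and 9.36 at 12 h, 26.0 and 19.8 at 24 h and 21.8 and 22.8 at 40 h. The serum/LIF+2i libraries gave 4.41 and 1.47, 3.65 and 5.11, 17.3 and 15.2, and 13.7 and 14.0. The 12 h libraries of 2i/LIF lay below the 0 h libraries, and those of serum/LIF+2i overlapped them. The log2 change at 12 h was -0.67 ± 0.18 for 2i/LIF (adjusted p 0.0015) and 0.60 ± 0.30 for serum/LIF+2i (not called, 0.088; called without replicate 1 at 0 h, at 1.59, or without replicate 1 at 12 h, at 0.81). From 12 to 24 h it rose in both, by 1.34 ± 0.16 (2.6e-11) and 1.86 ± 0.19 (8.0e-15), and the step to 40 h was not called in either. At 40 h it was 0.62 ± 0.15 above 0 h for 2i/LIF (1.7e-04) and 2.23 ± 0.23 for serum/LIF+2i (1.7e-15). In the order of groups, serum/LIF+2i at 0 h overlapped serum/LIF+2i at 12 h. Serum/LIF+2i at 40 h, 2i/LIF at 0 h and serum/LIF+2i at 24 h overlapped in turn, as did 2i/LIF at 40 and 24 h.

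**Figure D2:**
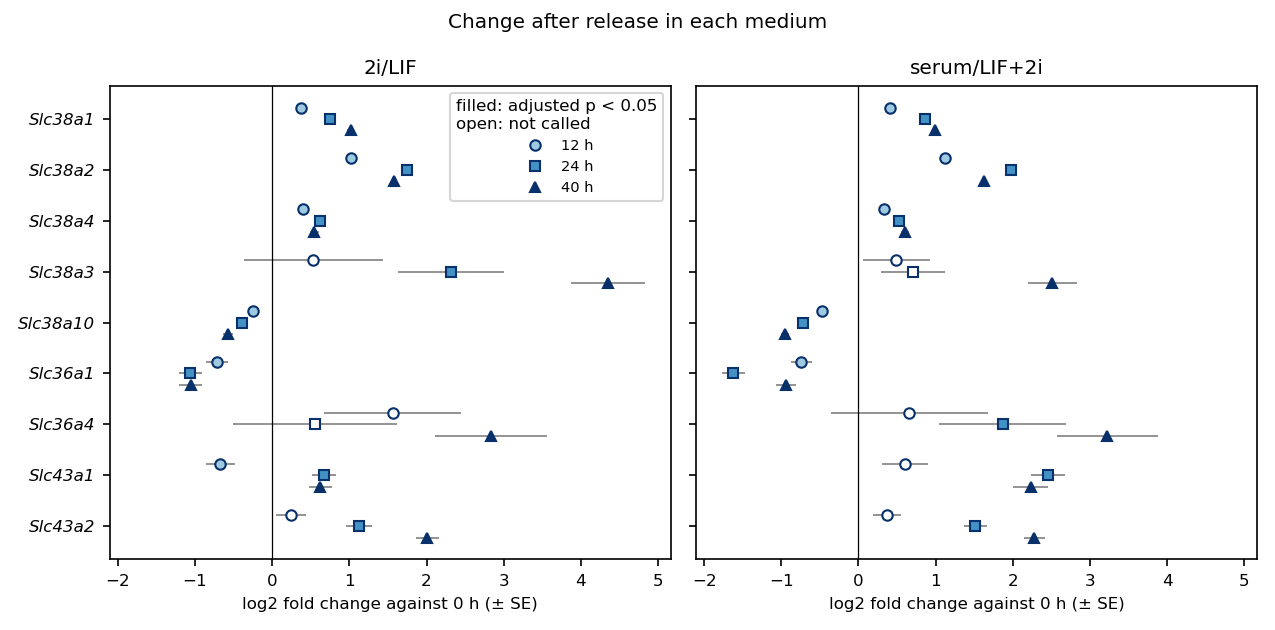
Log2 fold change against 0 h (x axis) for each carrier (y axis) for 2i/LIF and for serum/LIF+2i; circles are 12 h, squares 24 h and triangles 40 h, bars are ± 1 SE, and open symbols were not called. At 40 h all symbols are filled, with Slc38a10 and Slc36a1 left of 0 and the other 7 right of it.

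Fewer members were called at 12 and 24 h, and between neighbouring later times, than at 40 h against 0 h. At 12 h, 6 members were called for 2i/LIF (3 higher, 3 lower) and 5 for serum/LIF+2i (3 higher, 2 lower), where 44.7% and 51.2% of all tested genes were. In 2i/LIF 21% of all genes were called higher and 23.7% lower, and in the serum-adapted cells 25.3% and 25.9%. At 24 h, 8 were called in each medium (6 higher, 2 lower), against 58.8% and 64.4% of all genes. The genes called higher made up 29.2% and 32.4% of all, and those called lower 29.6% and 32%. With Slc38a3 and Slc36a4 left out, 7 members were called at 24 h in each medium (5 higher, 2 lower). From 12 to 24 h, 7 were called in each medium, 6 higher and 1 lower for 2i/LIF and 5 higher and 2 lower for serum/LIF+2i. All genes called there were 35.1% for 2i/LIF (17.4% higher, 17.7% lower) and 48.4% for serum/LIF+2i (24.2% each way). With Slc38a3 and Slc36a4 left out, 6 members were called for 2i/LIF (5 higher, 1 lower) and 7 for serum/LIF+2i (5 higher, 2 lower). In 2i/LIF the lower call was Slc38a10 (-0.15 ± 0.06, adjusted p 0.044), which was lost without replicate 2 at 12 h (-0.11, 0.308), replicate 1 at 24 h (-0.16, 0.114) or replicate 2 at 24 h (-0.14, 0.162). It was also lost by DESeq2 (0.159), with library size only (0.0606) and with a minimum mean of 5 CPM (0.06). The higher call of Slc38a3 there (1.78 ± 0.60, adjusted p 0.013) was lost without replicate 1 at 12 h (1.04, 0.245) or replicate 1 at 24 h (1.499, 0.14), and was 3.46 without replicate 2 at 12 h. From 24 to 40 h, 6 were called for 2i/LIF (4 higher, 2 lower), where 46.7% of all genes were (22.2% higher, 24.5% lower), and 7 for serum/LIF+2i (5 higher, 2 lower), where 50.5% were (25.9% higher, 24.6% lower). Slc38a3 and Slc36a4 are among the higher calls of this step in both media, and without them 4 were called for 2i/LIF (2 higher, 2 lower) and 5 for serum/LIF+2i (3 higher, 2 lower). These comparisons share their 0 h, 12 h or 24 h libraries and are not independent of each other. Within the 24 to 40 h step the members went separate ways. Slc38a2 and Slc38a10 fell in both media, and Slc38a1, Slc38a3, Slc36a4 and Slc43a2 rose in both. The fall of Slc38a10 in that step of 2i/LIF, -0.17 ± 0.06 (adjusted p 0.015), was not called without replicate 1 at 24 h (-0.17) or replicate 1 at 40 h (-0.14). DESeq2 (adjusted p 0.124) and edgeR with scaling by library size only (-0.13, 0.0777) did not call it either.

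Levels of different genes were compared as CPM per kilobase of gene length. Slc38a2 led in every group. At 0 h in 2i/LIF it had 58.1, followed by Slc38a4 with 30.3, Slc38a10 with 24.2 and Slc38a1 with 19.1. Then came Slc43a1 with 4.96, Slc36a1 with 4.52, Slc43a2 with 1.17, and Slc38a3 and Slc36a4 with 0.123 each. At 40 h in 2i/LIF Slc38a2 had 173, Slc38a4 44.2 and Slc38a1 38.5, whereas Slc38a10 had 16.4. Added over the 9 genes, the level was 143 and 142.3 CPM per kilobase at 0 h in 2i/LIF, 207.5 and 213.9 at 12 h, 308.1 and 302.5 at 24 h, and 290.6 and 289.9 at 40 h. Cells from serum/LIF+2i showed 154.3 and 155.6, 231.4 and 232.3, 357.2 and 351.2, and 317.1 and 311. The sum was highest at 24 h in both media, with no overlap between times. Slc38a2 took 40.3% and 41.2% of it at 0 h in 2i/LIF and 64.0% and 63.9% at 24 h, and the share of Slc38a10 went from 16.1% and 17.9% at 0 h to 5.50% and 5.77% at 40 h.

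**Figure D3:**
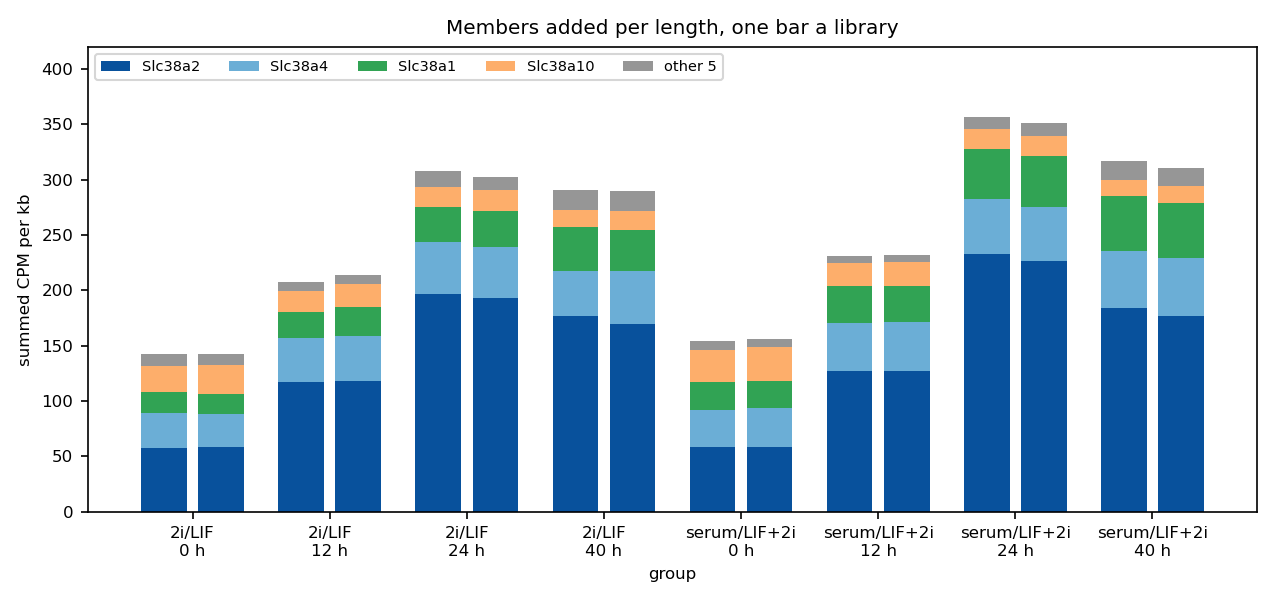
Summed level of the 9 carriers in CPM per kilobase, a bar for each library in pairs by group, coloured by Slc38a2, Slc38a4, Slc38a1, Slc38a10 and the other 5 genes together. The bars are tallest at 24 h, and Slc38a2 is the largest block in all 16 libraries.

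The media were then compared at each time, as serum/LIF+2i over 2i/LIF. At 0 h 5 members were called, 4 higher and 1 lower in serum/LIF+2i, where 33% of all tested genes were called (14.6% higher, 18.4% lower). At 12 h 5 were called (4 higher, 1 lower) against 30.3% of genes (14.8% higher, 15.5% lower). With Slc38a3 and Slc36a4 left out, 4 members were called at 0 h and 4 at 12 h (3 higher, 1 lower each). At 24 h the count was 4 (2 higher, 2 lower) against 31.1% (14.1% higher, 17% lower), and at 40 h it was 3 (2 higher, 1 lower) against 27.3% (13.9% higher, 13.4% lower). Slc38a1 was higher in serum/LIF+2i at all 4 times, with log2 differences of 0.38 ± 0.05 (adjusted p 9.6e-11), 0.40 ± 0.04 (7.1e-14), 0.50 ± 0.04 (2.8e-20) and 0.35 ± 0.04 (3.8e-13) at 0, 12, 24 and 40 h. All its serum/LIF+2i libraries lay above those of 2i/LIF at the same time. Its exit effect differed between media at no time by the test of that difference, with 0.03 ± 0.07, 0.12 ± 0.06 and -0.02 ± 0.06 at 12, 24 and 40 h. Slc43a1 was lower in serum/LIF+2i at all 4 times, by -2.29 ± 0.24 (1.6e-13), -1.02 ± 0.22 (1.6e-04), -0.50 ± 0.14 (0.0022) and -0.69 ± 0.13 (2.8e-05), again with no overlap. At 24 h this was not called without the 2i/LIF replicate 1 (-0.29, 0.254), without the serum/LIF+2i replicate 2 (-0.41, 0.0577) or by DESeq2 (-0.49, 0.0702).

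Slc38a2 showed no detectable difference at 0 h (0.00 ± 0.04, adjusted p 0.97), was higher in serum/LIF+2i at 12 h (0.11 ± 0.04, 0.011) and at 24 h (0.23 ± 0.03, 9.6e-09), and was not called at 40 h (0.06 ± 0.03, 0.22; 0.0471 with scaling by library size only). At 12 h it was not called without the 2i/LIF replicate 1 (0.0919), 2i/LIF replicate 2 (0.0556) or serum/LIF+2i replicate 2 (0.0755). Slc38a4 was 0.19 ± 0.06 higher at 0 h (0.0047), 0.13 ± 0.05 at 12 h (0.041) and 0.25 ± 0.05 at 40 h (1.1e-05), and 0.09 ± 0.05 at 24 h was not called (0.13). Its difference at 12 h was lost without any of the 4 libraries compared (log2 values of 0.12, 0.13, 0.13 and 0.13). It was also lost by DESeq2 (adjusted p 0.177) and without ribosomal RNA genes (edgeR adjusted p 0.0697). At 0 h it was lost without the 2i/LIF replicate 2 (0.14, adjusted p 0.160) or of serum/LIF+2i (0.15, 0.0991), and at 40 h without the 2i/LIF replicate 1 (0.14, 0.0729). Slc38a10 was 0.31 ± 0.06 higher at 0 h (2.7e-06) and was not called later.

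Slc38a3 had 4 counts for 2i/LIF and 19 for serum/LIF+2i at 0 h, which gives a ratio of 4.32 with a 95% interval from 1.44 to 17.5 (counting error only), and 7 and 33 counts at 12 h, a ratio of 4.15 (1.80 to 11.1). The log2 differences of 2.06 ± 0.72 (adjusted p 0.018) and 2.02 ± 0.55 (0.0024) were called. At 0 h the call was lost without the 2i/LIF replicate 2 (1.40, 0.231) or serum/LIF+2i replicate 2 (1.98, 0.068) and by DESeq2 (2.10, 0.0605). At 12 h it was lost without the 2i/LIF replicate 1 (1.28, 0.126), and without the 2i/LIF replicate 2 it was 3.70. Slc36a1 was 0.52 ± 0.18 lower on the log2 scale in serum/LIF+2i at 24 h (adjusted p 0.018). That difference was -0.20 (0.499) without the serum/LIF+2i replicate 1 at 24 h, -0.96 without replicate 2 of that group and -0.46 (0.145) without the 2i/LIF replicate 1, and DESeq2 did not call it (0.0908). Slc36a4 and Slc43a2 were called between media at no time. For Slc43a2 at 24 h the value was 0.30 ± 0.12 (0.060), which was called without the serum/LIF+2i replicate 2 at that time (0.42, 0.0266), without the serum/LIF+2i replicate 2 at 0 h (0.0451) and with scaling by library size only (0.0396).

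**Figure D4:**
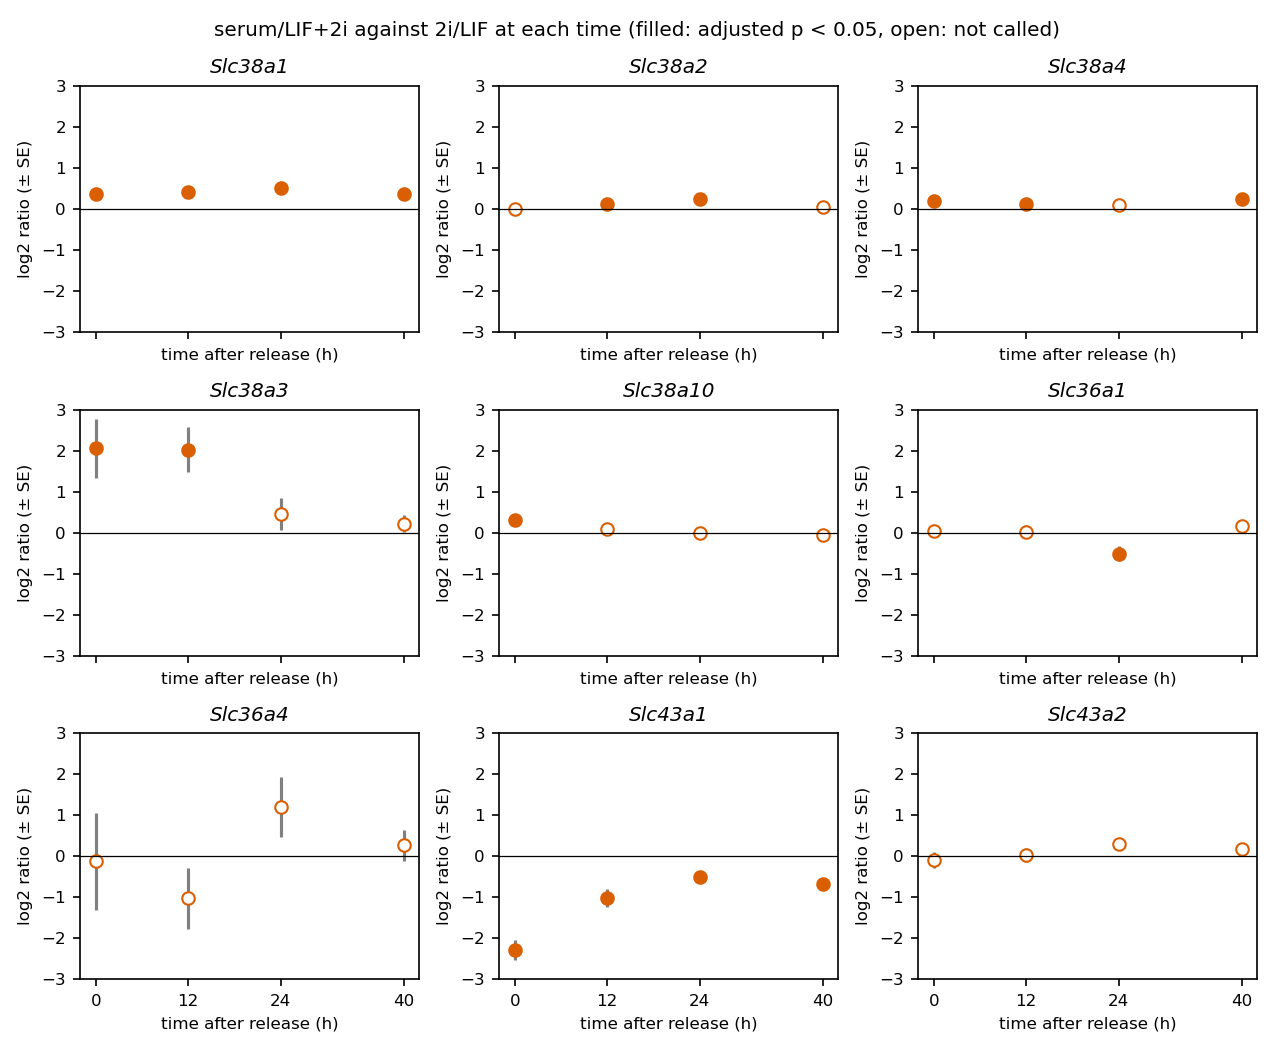
Log2 ratio of serum/LIF+2i over 2i/LIF (y axis, ± 1 SE) against time in hours for each carrier; filled points were called and open points were not. Slc38a1 is above 0 and Slc43a1 below 0 with filled points at all 4 times, and Slc38a2 is filled at 12 and 24 h.

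The exit effects of the media differed for 1 member at 12 h, 3 at 24 h and 2 at 40 h, where 9.2%, 20.8% and 27.6% of all genes were called. Called with the more positive effect in serum/LIF+2i were 4.8%, 9.77% and 14.8% of all genes, and with the more negative one 4.4%, 11% and 12.8%. Slc43a1 had the more positive effect in serum/LIF+2i at each time, by 1.27 ± 0.35 (adjusted p 0.0097), 1.79 ± 0.29 (4.6e-07) and 1.61 ± 0.29 (4.3e-06). Its 0 h libraries in serum/LIF+2i held 30 and 10 counts. Without replicate 1 there, the values were 2.26, 2.78 and 2.60. Without replicate 2 it was 0.70 at 12 h (0.277) and 1.03 at 40 h (0.00606), and without the serum/LIF+2i replicate 2 at 12 h it was 0.98 at 12 h (0.186). Slc38a10 had the more negative effect in serum/LIF+2i at 24 h (-0.32 ± 0.08, 0.0015) and at 40 h (-0.38 ± 0.08, 1.0e-04). At 24 h it was not called without the 2i/LIF replicate 1 at 0 h (-0.24, 0.0581). At 12 h the value of -0.22 ± 0.08 missed the threshold (0.059) and passed it without the 2i/LIF replicate 2 at 0 h (-0.30, 0.0305) or serum/LIF+2i replicate 1 at 0 h (-0.28, 0.0211). For Slc36a1 the difference at 24 h was not called (-0.56 ± 0.22, 0.056) and was -1.004 (adjusted p 0.00244) without the serum/LIF+2i replicate 2 at that time. It was also called without the 2i/LIF replicate 1 at 0 h (-0.67, 0.0429), the serum/LIF+2i replicate 2 at 0 h (-0.62, 0.0459) or ribosomal RNA genes (-0.58, 0.0466). For Slc38a3 at 40 h it was -1.84 ± 0.76 (0.058), and called without the serum/LIF+2i replicate 1 at 40 h (-2.10, 0.0361). Slc38a2 had the more positive effect at 24 h (0.23 ± 0.05, 3.4e-04) and was not called at 40 h (0.05 ± 0.05, 0.49).

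Relatives in the same families that are not among the 9 behaved in several ways. Of 9 such genes, 4 passed the filter and the other 5 had at most 13 counts in any library. These 5 were Slc38a5, Slc38a8, Slc38a11, Slc36a2 and Slc36a3. At 40 h in 2i/LIF 1 of the 4 rose and 2 fell, and in serum/LIF+2i 2 rose and 2 fell. Shares of all tested genes were 34.1% called higher and 34.7% lower for 2i/LIF, and 35.3% each way for serum/LIF+2i. Slc38a7, which carries glutamine out of lysosomes, stood at 112 CPM in both 0 h libraries of 2i/LIF and at 64.4 and 69.6 at 40 h, a log2 change of -0.74 ± 0.07 (adjusted p 2.9e-19). In serum/LIF+2i it changed by -0.39 ± 0.06 (9.0e-09). Slc38a9, the lysosomal arginine sensor, did not pass the test in 2i/LIF (0.22 ± 0.17, 0.26) and rose by 0.88 ± 0.15 in serum/LIF+2i (2.1e-07), and the difference between these was called (0.67 ± 0.23, 0.022). Slc43a3, a purine base carrier, went from 2.24 and 1.22 CPM to 9.77 and 10.2 in 2i/LIF, a change of 2.54 ± 0.30 (2.8e-13), and by 2.74 ± 0.26 in serum/LIF+2i (1.8e-17). Slc38a6 fell by 0.52 ± 0.19 (0.013) and by 0.41 ± 0.18 (0.032).

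Lists of functionally related genes, chosen with earlier results of these data known, were counted in the same fit. At 40 h the shares of all tested genes were 34.1% called higher and 34.7% lower for 2i/LIF, and 35.3% each way for serum/LIF+2i. Of 20 carriers from the SLC1, SLC3, SLC6, SLC7 and SLC16 families, 17 were tested, and 12 rose and 4 fell at 40 h for 2i/LIF and 12 rose and 5 fell for serum/LIF+2i (medians 0.99 and 1.42). Slc7a5, the leucine exchanger, rose by 1.22 ± 0.04 in 2i/LIF (adjusted p 4.3e-55). Of 25 genes of the amino acid response, the ATF4 programme to which Slc38a2 belongs, 23 rose and 1 fell at 40 h in 2i/LIF, and 24 rose and 1 fell in serum/LIF+2i. The list's median log2 change from 24 to 40 h was 0.61 for 2i/LIF and 0.16 for serum/LIF+2i, while Slc38a2 fell over that step. Between media at 24 h, 25 of 25 response genes were higher in serum/LIF+2i (median 0.70), where 14.1% of all tested genes were called higher. At that time the difference in Slc38a2 was 0.23. Asns, asparagine synthetase, was the response gene that fell, by 1.39 ± 0.04 and by 1.49 ± 0.04 (adjusted p 3.5e-60 and 3.2e-64). The part of ATF4 in the levels of Slc38a2 and of these genes was not tested.

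Of 19 genes of lysosomal amino acid sensing, the machinery that works with Slc36a1 and Slc38a9, 2 rose and 5 fell at 40 h in 2i/LIF, and 5 rose and 5 fell in serum/LIF+2i. Called in all were 7 and 10 of the 19, against 68.8% and 70.5% of all tested genes. Tfeb, a transcription factor of lysosomal genes, fell by 2.66 ± 0.14 for 2i/LIF (adjusted p 6.6e-34) and by 2.39 ± 0.14 for serum/LIF+2i (2.4e-30). Its relative Tfe3 rose by 0.81 ± 0.05 (1.9e-29) and by 0.98 ± 0.05 (5.0e-39). Of 14 genes that use or make glutamine, 7 rose and 6 fell in 2i/LIF, and 8 rose and 5 fell in serum/LIF+2i. Gpt2, an enzyme that passes nitrogen between glutamate and alanine, rose by 0.91 ± 0.05 (1.3e-33) and by 1.03 ± 0.05 (9.5e-39). The medians of the 4 lists in 2i/LIF were 0.99, 0.84, -0.08 and 0.11, and that of all tested genes was 0.005. For serum/LIF+2i the list medians were 1.42, 1.185, 0.003 and 0.25, and that of all tested genes was -0.003.

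Among 10768 other genes whose mean was 5 CPM or more, those with the pattern most like a member were found by Pearson's r over the 8 group means of log2 CPM. These r values describe 8 points that share libraries and the same course of time. Slc38a2 was closest to Elac2, Clstn3 and Zc3h8 (r 0.995, 0.993 and 0.993), and Slc38a1 to Reep6, Rgs19 and Clpb (0.994, 0.992 and 0.992). Slc38a4 was closest to Zfhx3, Trp53bp2 and Plekhb1 (0.988, 0.981 and 0.981), and Slc38a10 to Septin2, Npr3 and Anapc10 (0.993, 0.993 and 0.989). For Slc36a1 the genes were Gnb1l, Lpin2 and Csnk1e (0.988, 0.983 and 0.980), for Slc43a1 Nadk, Borcs7 and Zfp799 (0.989, 0.971 and 0.967), and for Slc43a2 Hpn, Shisa6 and Dlst (0.997, 0.996 and 0.993). Among the members, Slc38a4 was as close to Slc38a1 (0.941) as to Slc38a2 (0.940), its neighbours on chromosome 15. Slc38a2 and Slc36a1 ran opposite to each other (-0.967).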

How the data were processed

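RNA was extracted in TRIzol and its poly(A) fraction sequenced with a strand-specific kit, per the labels' protocols. The authors deposited whole-number counts per gene, not normalized, with a gene length in bases as a further value (per the file headers). The submitters' processing notes name fastp, STAR and featureCounts with build mm10; versions, annotation release and the strand setting are not given in the sources used here. Without the strand setting, reads from antisense genes may be included. Slc38a1, Slc38a4, Slc38a10 and Slc43a1 each overlap a long noncoding RNA gene that is absent from the count table, and Slc43a2 a microRNA gene. Of 27179 genes, 1049 had no symbol and 0 value columns lacked a library.

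Genes were kept by edgeR 4.0.16 filterByExpr (minimum count 10, minimum total 15), which left 14288. Scaling used the TMM method, and all libraries were fitted in 1 model with a term per group (8 residual degrees of freedom, common biological variation 3.19%), and 17 comparisons were tested with the robust quasi-likelihood F test, two-sided. SEs were derived from the F statistic. Genes named in the text are the 9 members, their family relatives, up to 3 genes of smallest adjusted p at 40 h per list and medium, and the 3 genes most like each member. The members and lists were chosen with earlier results of these data known. The procedure was also run on simulated counts with the same biological variation for every gene, so that run does not vouch for single calls here. Replicates of each group differed by more than sampling noise (chi-square per degree of freedom 1.35 to 2.88 without ribosomal RNA genes). At the depths here, 3 counts correspond to 0.259 to 0.517 CPM, and intervals cover counting error only. Promoter letters are from RefSeq (GRCm38.p6), with bases inside annotated genes removed.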

Additional observations from a re-analysis of the deposited data

Results flagged for a closer look

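Each difference here was singled out because the change after release differed between the media by an interaction test (edgeR, adjusted over all genes). Slc43a1 differed by 1.27, 1.79 and 1.61 on the log2 scale at 12, 24 and 40 h, each more positive in serum/LIF+2i. Slc38a2 differed by 0.23 at 24 h, also more positive in serum/LIF+2i. Slc38a10 differed by -0.32 at 24 h and by -0.38 at 40 h, more negative in serum/LIF+2i, where it started higher.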

How the results depend on the processing

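The 7 other analyses and the 16 fits that each left out 1 library gave 3485 values for the members, of which 3362 kept direction and side of the threshold, 50 were no longer called, 21 became called and 52 changed sign. Of those 52, 0 were called in either fit. At 40 h against 0 h, 205 of 205 values were unchanged in this sense in each medium. DESeq2 called fewer genes in all between media, 3097, 2638, 2688 and 1982 at 0, 12, 24 and 40 h (edgeR 4710, 4334, 4439 and 3897), and 536, 1720 and 2377 interactions at 12, 24 and 40 h (edgeR 1315, 2966 and 3940). It called 2 members between media at 24 h, against 4. For the interaction at 12 h, 2 members were called in place of 1 with library size only, without ribosomal RNA genes and with a replicate block, through Slc38a10 (adjusted p 0.0389, 0.0278 and 0.0434). There, 52.2% of all calls were higher, and 41.4% without ribosomal RNA genes. The replicate block changed no other member call. No pairing of samples by replicate number was seen, as deviations of same-numbered libraries correlated by -0.023 to 0.0331 over 28 pairs of groups. These deviations also hold counting noise, so a weak pairing could go unseen.

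Sign changes of uncalled values were, for the 24 to 40 h step in 2i/LIF, 0.00044 for Slc43a1 (library size only) and -0.0041 for Slc36a1 (no filter). For Slc38a2 between media at 0 h they were -0.0018 (DESeq2), -0.0016 (its size factors) and -1.2e-05 (no filter). For Slc38a10 at 24 h they were 0.014 (library size only) and 0.0040 (a mean of 5 CPM), and for the Slc38a1 interaction at 12 h -0.0024 (without ribosomal RNA genes). With 1 library left out, an arm of 1 was assumed to vary like the other groups. Members called then ranged from 0 to 2 for the interaction at 12 h, from 3 to 5 between media at 0 h, and from 2 to 5 at 12 and at 24 h. All genes called between media at 40 h ranged from 2240 (without replicate 1 of 2i/LIF) to 4074. Ranges that crossed 0 were -1.15 to 1.55 for Slc38a3 at 12 h in 2i/LIF and -0.066 to 0.43 for its 12 to 24 h step in serum/LIF+2i. For the 24 to 40 h step in 2i/LIF they were -0.052 to 0.057 (Slc36a1), -0.19 to 0.035 (Slc38a4) and -0.22 to 0.17 (Slc43a1). Between media at 0 h they were -0.080 to 0.16 (Slc36a1), -0.67 to 0.32 (Slc36a4), -0.019 to 0.012 (Slc38a2) and -0.39 to 0.14 (Slc43a2). Later they were -0.031 to 0.075 (Slc36a1, 12 h), -0.11 to 0.20 (Slc43a2, 12 h), -0.029 to 0.0035 (Slc38a10, 24 h) and -0.052 to 0.42 (Slc38a3, 40 h). For interactions at 12 h they were -0.14 to 0.10 (Slc36a1), -0.053 to 0.12 (Slc38a1), -1.05 to 1.64 (Slc38a3) and -0.11 to 0.42 (Slc43a2), and at 40 h -0.00063 to 0.24 (Slc36a1), -0.066 to 0.93 (Slc36a4), -0.056 to 0.016 (Slc38a1) and -0.057 to 0.17 (Slc38a4). The cause of these changes was not tested. Depth limits Slc38a3 and Slc36a4 most, with 1 to 10 and 1 or 2 counts per library at 0 h.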
